A study of Mus musculus with 12 samples.

Results

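The 36 genes described here are 15 enzymes of glycolysis and 21 further genes of the transcriptional response to low oxygen, out of 23358 rows of the gene table. They form a list, given by name, of genes of glycolysis and the hypoxia response, and each was found once under its own symbol. The cells were mouse bone marrow-derived mesenchymal stem cells in medium with 10% fetal bovine serum, left for 1 day after plating. The 4 conditions were no treatment (Ctrl), cytochalasin D (CytoD), CK666, or both compounds together (CytoD+CK666), with 3 libraries in each, 12 in all. Treatments lasted 24 h, and how long the Ctrl cells were kept is not given. Cytochalasin D caps and breaks down actin filaments, and CK666 inhibits the Arp2/3 complex, which starts filament branches. The sources used here do not state doses, animal strain, age or number, oxygen tension or any vehicle for the Ctrl cells, nor whether the 3 libraries of a group came from separate cultures or animals, so that p-values measure the spread between libraries only.

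Glycolysis turns glucose into pyruvate in a chain of enzymes. Hexokinases trap glucose, phosphofructokinases set the pace, and lactate dehydrogenase turns pyruvate into lactate, which monocarboxylate transporters carry out of the cell. Many of these genes are targets of the hypoxia-inducible factors (HIF), whose alpha subunits Hif1a and Epas1 are marked for destruction by the prolyl hydroxylases Egln1 and Egln3 while oxygen is plentiful. A HIF dimer binds short core sequences, ACGTG being the best known and GCGTG a variant, near target genes. Marrow stromal cells are known to live at low oxygen in the marrow and to rely on glycolysis, and HIF targets are also under other control, so that their RNA alone does not measure HIF.

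Levels are CPM, each count relative to its library's size after TMM scaling, and a call is an adjusted p under 0.05 in edgeR's quasi-likelihood fit across the 13534 genes that passed the low-count filter, which all 36 members did. Library sums were 48930210 to 69269716 counts, so that a count of 0 allows up to 0.0613 CPM in the shallowest library, for counting error only. CK666 replicate 3 stood apart: its median absolute log2 difference per gene was 0.289 and 0.276 from the other two CK666 libraries, which differed by 0.126, and its difference moved with gene length (r = 0.377 and 0.465 across genes). Of the 12 stromal markers, Cxcl12, Col1a1, Pdgfra and Pdgfrb were abundant, while Thy1 and Nt5e were under 1 CPM in every library. Lepr and Eng were low as well, at Ctrl means of 0.607 and 2.30 CPM. The summed stromal level was 14429 to 17734 CPM in Ctrl, 23037 to 25552 with CytoD, 8960 to 10519 with CK666 and 8849 to 9135 with both. Cxcl12 made up most of it, at a mean of 8331 CPM in Ctrl and 18052 with CytoD, while Col1a1 went from 5674 to 3312. Of the 11 stromal markers that passed the filter, 5 rose and 3 fell with CytoD. With CK666, and likewise with both, 2 rose and 5 fell. Of all genes tested, 37.9%, 41.1% and 46.0% were called in these comparisons. The markers Ptprc and Adgre1 of macrophages, Emcn and Erg of endothelium, and Hba-a1, Hbb-b1, Ms4a1 and Cd3e of blood cells had no count in any library. The summed level of 9 macrophage markers was 7.05 to 13.2 CPM, that of 8 endothelial markers 1.34 to 3.96 CPM and that of 8 erythroid and lymphoid markers 0.0822 to 0.366 CPM.

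Other lists moved alongside the members. All 10 mitosis genes fell in each treated group against Ctrl, with summed levels of 430.5 to 572 CPM in Ctrl, 209 to 236 with CytoD, 311 to 372 with CK666 and 117 to 136 with both. All 10 adipocyte markers rose in each. Their summed level was 3504 to 4162 CPM in Ctrl, 8618 to 8924 with CytoD, 7756 to 9971 with CK666 and 9649.9 to 12032 with both. Lpl made up most of these sums, at a mean of 3095, 7412, 5886 and 7424 CPM in that order. The median log2 change of the adipocyte markers was 3.01 with CytoD, 5.46 with CK666 and 5.81 with both. The part of the mitosis genes or of the adipocyte markers in the results on the members was not tested. In these bulk libraries, fewer cells of a type and less RNA per cell cannot be told apart.

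The promoter windows show where some of the lowered members hold a core HIF motif. Printed here are the 250 bases before the RefSeq start (mouse build GRCm38.p6), 5′ to 3′ on the gene's own strand, for 3 enzymes and 3 other members that fell with CytoD, picked because they hold one. Capitals mark ACGTG where it occurs on either strand, and likewise GCGTG, a match on the opposite strand being printed as its reverse complement. The windows lie at chrX:106186850-106187099 (+), chr13:6648772-6649021 (-), chr7:46845554-46845803 (+), chr9:108991652-108991901 (+), chr11:54100674-54100923 (+) and chr10:59323046-59323295 (+).
Pgk1: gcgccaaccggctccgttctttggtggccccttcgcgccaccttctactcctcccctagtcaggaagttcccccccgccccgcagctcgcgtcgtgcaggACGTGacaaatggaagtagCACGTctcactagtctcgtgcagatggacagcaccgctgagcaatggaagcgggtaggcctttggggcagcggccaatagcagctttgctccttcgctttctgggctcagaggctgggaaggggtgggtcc
Pfkp: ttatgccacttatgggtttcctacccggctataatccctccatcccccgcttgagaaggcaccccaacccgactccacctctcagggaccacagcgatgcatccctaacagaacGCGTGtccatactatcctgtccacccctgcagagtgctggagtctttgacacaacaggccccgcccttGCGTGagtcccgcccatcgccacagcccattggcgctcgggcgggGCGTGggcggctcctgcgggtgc
Ldha: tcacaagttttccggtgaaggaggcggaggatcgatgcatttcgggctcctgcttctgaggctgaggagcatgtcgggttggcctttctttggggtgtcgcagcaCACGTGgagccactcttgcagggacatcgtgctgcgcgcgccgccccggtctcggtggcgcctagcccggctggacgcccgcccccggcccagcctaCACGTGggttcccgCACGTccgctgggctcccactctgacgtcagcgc
Pfkfb4: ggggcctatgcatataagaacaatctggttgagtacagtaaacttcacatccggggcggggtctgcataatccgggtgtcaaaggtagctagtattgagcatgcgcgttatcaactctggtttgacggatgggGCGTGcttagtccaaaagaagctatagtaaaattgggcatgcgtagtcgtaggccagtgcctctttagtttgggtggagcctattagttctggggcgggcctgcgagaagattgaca
P4ha2: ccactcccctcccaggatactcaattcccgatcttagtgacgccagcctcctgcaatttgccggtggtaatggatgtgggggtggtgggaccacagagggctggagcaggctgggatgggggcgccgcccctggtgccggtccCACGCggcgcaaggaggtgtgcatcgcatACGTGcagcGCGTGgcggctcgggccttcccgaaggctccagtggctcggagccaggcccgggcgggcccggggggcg
P4ha1: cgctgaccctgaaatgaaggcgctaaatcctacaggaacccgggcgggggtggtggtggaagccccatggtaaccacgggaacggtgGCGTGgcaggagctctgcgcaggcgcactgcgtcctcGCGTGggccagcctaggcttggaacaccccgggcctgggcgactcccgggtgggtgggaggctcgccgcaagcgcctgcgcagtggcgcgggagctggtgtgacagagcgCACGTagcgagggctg

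In Pgk1, ACGTG begins 150 bases before the start on the gene's strand and 131 bases before it on the other. Ldha holds 5 matches to ACGTG, 4 of them in 2 copies of the palindrome CACGTG, which gives a match on each strand, and 1 on the opposite strand 34 bases before the start. The Pfkp window has GCGTG 136, 68 and 23 bases before the start. Pfkfb4 has 1 match, to GCGTG, and P4ha1 and P4ha2 have 1 match to ACGTG and 2 to GCGTG each. Counting both strands, 26 of the 32 members with a window in the RefSeq table (81.2%) held at least 1 of the 2 motifs, against 38.6% of all 27025 gene windows. The share was 10 of 15 enzymes (66.7%) and 16 of 17 other members (94.1%). ACGTG was found in 53.1% of the members' windows and 16.6% of all windows, and GCGTG in 56.2% and 28.2%. The list was made of glycolysis and hypoxia response genes, and the comparison with all windows was not matched for base composition. The shares describe the sequences and not these libraries. Hk2, with 2 matches to ACGTG, and Bnip3, with 2 to ACGTG and 3 to GCGTG, did not fall in any group. Hk1, Gpi1, Aldoa and Tpi1, which fell with CytoD, held neither motif in the window used. These genes were picked as examples, and whether the motif goes with a direction of change was not tested. Only the first listed window of each gene was used, while the members had 45 listed. A match describes letters in this window and not binding.

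Among the members, the enzymes Aldoa, Pgk1 and Ldha were the most abundant in untreated cells. Per kilobase of the authors' length column, the mean Ctrl level was 452 ± 12.2 CPM (SD, n = 3) for Aldoa, 433 ± 22.6 for Pgk1, 421 ± 15.4 for Ldha, 322 ± 22.3 for Pgam1 and 301.0 ± 13.9 for Tpi1. Neighbours among the first 3, and Pgam1 and Tpi1, did not differ beyond their spread. Gpi1 followed at 136 ± 3.90, and the regulated entry enzymes were far lower, with Pfkl at 56.3 ± 4.08, Hk1 at 41.2 ± 0.243, Pfkm at 18.0 ± 0.266, Pfkp at 9.07 ± 0.3 and Hk2 at 7.07 ± 0.392. Of the HIF alpha subunits, Hif1a stood at 69.9 ± 2.24 and Epas1 at 3.94 ± 0.501 CPM per kilobase. Aldoc and Slc2a3 were at or near the floor of 3 counts, at 0.0718 and 0.0174 CPM per kilobase, and Slc16a3 was low, at 0.140.

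The low values of Gapdh (66.8 ± 4.99 CPM per kilobase) and Eno1 (6.62 ± 1.56) are uncertain. Of the 50-base windows of the Gapdh transcript, 82.5% also occur in the transcripts of 222 other genes, 213 of them pseudogenes, and the share is 72.2% for Eno1, 68.0% for Pgk1, 62.4% for Bnip3, 41.5% for Pgam1, 36.6% for Higd1a, 25.3% for Gpi1 and 23.4% for Bnip3l. The Eno1 row is also overlapped by a row named Gm5506, chr4:150237324-150248873, with no count in any library. In Pfkp, 17.1% of windows are shared with the overlapping gene Pitrm1. For Ldha the share is 16.6% and for Aldoa 13.5%. How the authors treated reads with several matches or on either strand is not given in the sources used here. Reads that fall within shared windows thus cannot be assigned with certainty, for levels or for changes, while the remaining windows are not shared.

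**Figure D1:**
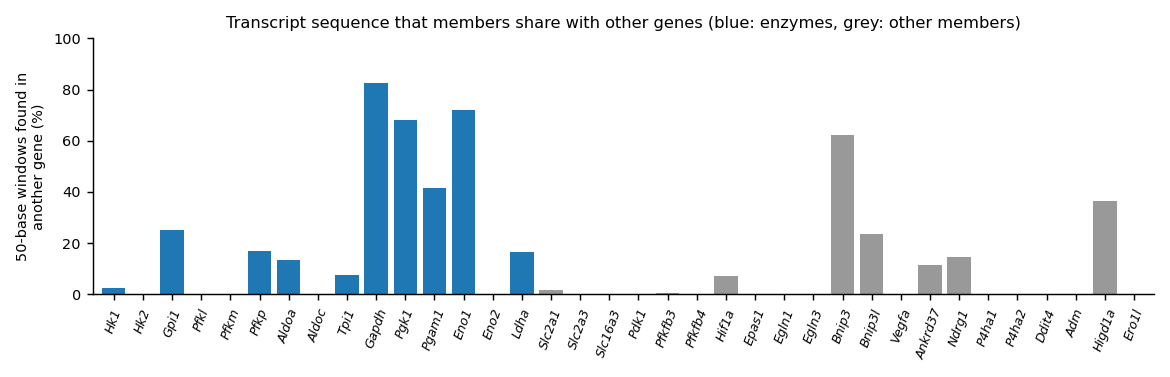
Share of the 50-base windows of each member's transcript (GENCODE M21) that also occur in a transcript of another gene, in percent. Gapdh (82.5%), Eno1 (72.2%), Pgk1 (68.0%) and Bnip3 (62.4%) share the most, and Hk2, Epas1, P4ha1, P4ha2, Ddit4 and Adm share none.

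CytoD lowered most of the glycolytic chain. Of the 15 enzymes, 10 fell, 1 rose and 4 were not called, where 37.9% of all genes tested were called (18.9% lower, 19.1% higher), and the median log2 change of the enzymes was -0.69 against 0.02 over all genes. The fall was deepest in Pgk1, which makes ATP (2.19-fold), in the phosphofructokinase Pfkp (2.06-fold) and in the lactate dehydrogenase Ldha (2.01-fold), while the hexokinase Hk2 rose 1.44-fold. With CK666 the enzymes divided, 6 rising and 4 falling, with a median of -0.09 against 0.03, where 41.1% of all genes were called (22.5% higher, 18.7% lower). With both compounds 8 fell and 2 rose, with a median of -0.35 against 0.04, where 46.0% were called (21.6% lower, 24.4% higher). These 3 comparisons share the Ctrl libraries, and the mitosis genes fell and the adipocyte markers rose in each of them (above). With RLE in place of TMM scaling the CK666 count was 5 higher and 5 lower.

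Hk1 and Hk2 encode the 2 main hexokinases, the entry to the pathway. Hk2 was at 36.5, 40.6 and 39.8 CPM in Ctrl, 48.6, 61.6 and 58.0 with CytoD, 56.7, 84.1 and 70.9 with CK666, and 79.9, 115 and 108 with both. Every treated library was above every Ctrl library. Hk2 rose by a log2 change of 0.53 (SE 0.15, adjusted p = 0.0159) with CytoD, 0.86 (SE 0.15, adjusted p = 0.000694) with CK666 and 1.38 (SE 0.15, adjusted p = 1.05e-05) with both. Both compounds gave more Hk2 than CytoD alone (0.85, adjusted p = 0.00108). The CytoD call was lost without Ctrl 1, CytoD 2 or CytoD 3 (adjusted p up to 0.0673). Hk1, the constitutive form, moved the other way with CytoD, from a mean of 186 ± 1.10 CPM in Ctrl to 115 ± 9.28 (log2 -0.69, adjusted p = 0.000146), and with both to 129 ± 19.9 (log2 -0.52, adjusted p = 0.000695). With CK666 Hk1 stood at 157 ± 4.05 CPM and missed the threshold (log2 -0.24, adjusted p = 0.0644); without CytoD 1, CytoD 3, CK666 3, CytoD+CK666 1 or CytoD+CK666 3 it was called lower (adjusted p as low as 0.0173), as it was with RLE scaling (0.0377).

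The phosphofructokinase subunits did not move together. The platelet-type subunit Pfkp was at 34.8, 36.9 and 36.8 CPM in Ctrl, 17.7, 18.0 and 16.9 with CytoD, 25.6, 25.4 and 28.1 with CK666, and 19.3, 18.8 and 17.4 with both. No treated library reached the Ctrl range, and the CytoD and CytoD+CK666 libraries lay below all CK666 libraries. Pfkp fell by 1.04 on the log2 scale with CytoD (SE 0.07, adjusted p = 6.15e-07), by 0.45 with CK666 (SE 0.07, adjusted p = 0.000193) and by 0.96 with both (SE 0.07, adjusted p = 2.07e-07). The muscle-type subunit Pfkm rose with CK666, from 55.0 ± 0.812 to 75.4 ± 8.44 CPM (log2 0.46, adjusted p = 0.00133), and with both, to 69.5 ± 7.15 (log2 0.34, adjusted p = 0.00729, and 0.0526 without Ctrl 1). With CytoD it stood at 64.7 ± 1.34 CPM and missed the threshold (log2 0.23, adjusted p = 0.0547), which it passed without CK666 1, CK666 3, CytoD+CK666 1 or CytoD+CK666 2 (adjusted p as low as 0.0193). The liver-type subunit Pfkl rose with CK666, from 209 ± 15.2 to 293 ± 67.0 CPM (log2 0.49, adjusted p = 0.00917, and 0.0665 without Ctrl 1; log2 0.27 without CK666 3), and stood at 184 ± 4.62 with CytoD (log2 -0.18, adjusted p = 0.289).

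Gpi1, Aldoa and Tpi1 act between hexokinase and the ATP-yielding steps. Gpi1, the glucose phosphate isomerase, fell with CytoD from 388 ± 11.1 to 248 ± 18.9 CPM (log2 -0.65, adjusted p = 9.42e-05) and rose with CK666 to 501 ± 58.7 (log2 0.37, adjusted p = 0.00449, and log2 0.23 without CK666 3). With both it was at 386 ± 19.5 CPM, above CytoD alone (log2 0.64, adjusted p = 0.000144). Aldoa, the main aldolase, showed the same signs, from 825 ± 22.2 CPM in Ctrl to 626 ± 44.1 with CytoD (log2 -0.40, adjusted p = 0.00852) and 1102 ± 186 with CK666 (log2 0.42, adjusted p = 0.00591, and log2 0.23 without CK666 3). It was at 936 ± 58.8 CPM with both, again above CytoD alone (log2 0.58, adjusted p = 0.00101). Tpi1, the triose phosphate isomerase, fell with CytoD from 482 ± 22.3 to 281 ± 22.7 CPM (log2 -0.78, adjusted p = 0.000104). Its level with CK666 was 449 ± 75.4 CPM (log2 -0.10, adjusted p = 0.460), and without CK666 3 it was called lower there (log2 -0.29, adjusted p = 0.00532). With both Tpi1 fell less, to 378 ± 21 CPM (log2 -0.35, adjusted p = 0.0149), a call lost without Ctrl 3 or CytoD+CK666 3 (adjusted p up to 0.0638). Aldoc, the brain-type aldolase, had 0.0671 to 0.534 CPM over all libraries and was not called in any comparison.

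Gapdh and Pgk1 carry the first steps that yield NADH and ATP. Gapdh was at 88.1, 75.9 and 82.8 CPM in Ctrl, 52.6, 36 and 40.8 with CytoD, 76.8, 64.2 and 90.4 with CK666, and 58.8, 55.3 and 47.6 with both. The CytoD and CytoD+CK666 libraries were all below Ctrl, and the CK666 libraries overlapped it. Gapdh fell by 0.93 on the log2 scale with CytoD (SE 0.15, adjusted p = 0.000300) and by 0.61 with both (SE 0.14, adjusted p = 0.00379), and its difference with CK666 was -0.09 (SE 0.14, adjusted p = 0.639), with the sign turned without CK666 2 (0.02). Pgk1 was at 739, 783 and 819.9 CPM in Ctrl, 374, 341 and 357 with CytoD, 616, 585 and 673 with CK666, and 542, 502 and 482 with both. The 4 groups did not overlap, in the order Ctrl, CK666, CytoD+CK666 and CytoD. Pgk1 fell by 1.13 on the log2 scale with CytoD (SE 0.07, adjusted p = 6.15e-07), by 0.32 with CK666 (SE 0.07, adjusted p = 0.00393) and by 0.62 with both (SE 0.07, adjusted p = 1.92e-05), and was higher with both than with CytoD alone (0.51, adjusted p = 0.000234).

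The last steps were also lowered by CytoD. Pgam1, the phosphoglycerate mutase, fell from 590.3 ± 40.8 to 357 ± 7.91 CPM with CytoD (log2 -0.73, adjusted p = 1.34e-05) and to 464 ± 18.0 with both (log2 -0.35, adjusted p = 0.00204). With CK666 it fell to 500.4 ± 43.1 CPM (log2 -0.24, adjusted p = 0.0219), a call lost without Ctrl 2, Ctrl 3, CK666 1 or CK666 2 (adjusted p up to 0.0837). Ldha, which makes lactate, was at 781, 817 and 840.5 CPM in Ctrl, 434, 395 and 387 with CytoD, 521, 529 and 637 with CK666, and 484, 419.6 and 403 with both. All treated libraries were below all Ctrl libraries, and those with CytoD, alone or with CK666, were below those with CK666 alone. Ldha fell by 1.00 on the log2 scale with CytoD (SE 0.09, adjusted p = 5.53e-06), by 0.53 with CK666 (SE 0.09, adjusted p = 0.000544) and by 0.90 with both (SE 0.09, adjusted p = 4.65e-06). Eno1 fell with CytoD from 11.8 ± 2.77 to 6.22 ± 1.05 CPM (log2 -0.92, adjusted p = 0.0223), a call lost without Ctrl 1, Ctrl 3, CytoD 2 or CytoD 3 (adjusted p up to 0.0860), and with both to 6.38 ± 1.49 (log2 -0.88, adjusted p = 0.0221), lost without Ctrl 1, Ctrl 3 or CytoD+CK666 3 (adjusted p up to 0.0968). Eno2, the neuronal enolase, rose with CK666 from 7.82 ± 0.414 to 9.90 ± 0.912 CPM (log2 0.34, adjusted p = 0.0406), a call that held among the 12 leave-outs only without CK666 2, CytoD+CK666 1 or CytoD+CK666 2 (adjusted p elsewhere up to 0.166) and was lost with RLE scaling (0.0610).

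**Figure D2:**
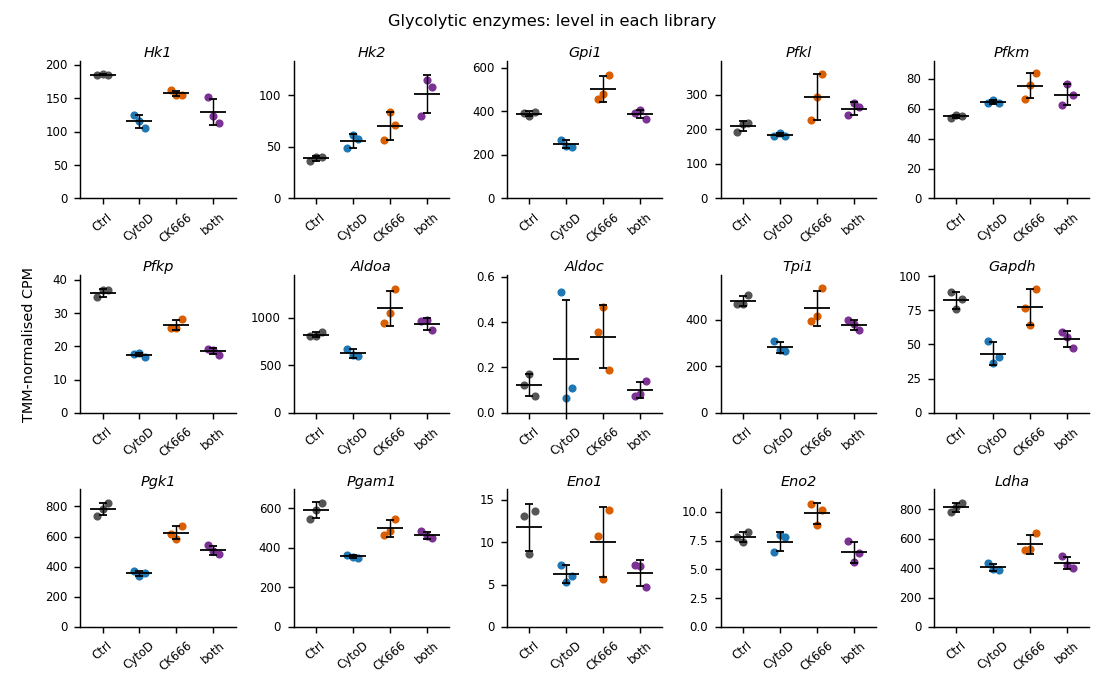
TMM-scaled CPM of the 15 glycolytic enzymes in the 12 libraries (points), with the group mean and SD (bars, n = 3); both stands for CytoD+CK666. Most enzymes are lowest with CytoD, as Pgk1 at 341 to 374 CPM against 739 to 819.9 in Ctrl, while Hk2 is higher in every treated library than in any Ctrl library.

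The fall with CytoD was smaller for several enzymes when CK666 was present. The interaction takes the CytoD effect among CK666-treated cells (CytoD+CK666 against CK666) and subtracts the effect among untreated ones (CytoD against Ctrl), and 5 enzymes had a positive one, none a negative one and 10 were not called, where 14.3% of all genes tested were called (6.63% positive, 7.67% negative). The 5 were Pgk1 (log2 0.83, SE 0.10, adjusted p = 0.000450), Ldha (0.64, SE 0.13, adjusted p = 0.00701), Pgam1 (0.62, SE 0.11, adjusted p = 0.00268), Pfkp (0.53, SE 0.10, adjusted p = 0.00371) and Tpi1 (0.53, SE 0.15, adjusted p = 0.0318). For Pgk1 this is a fall of 1.13 on the log2 scale from Ctrl to CytoD set against a fall of 0.30 from CK666 to both. For Ldha the same pair is 1.00 and 0.37, and for Pfkp 1.04 and 0.51. The Tpi1 interaction held among the 12 leave-outs only without CytoD 1, CK666 3 or CytoD+CK666 3 (adjusted p elsewhere up to 0.0951). Without CK666 3, 9 enzymes had a positive interaction, Gpi1 (log2 0.39, adjusted p = 0.00620) and Aldoa (0.33, adjusted p = 0.0239) among the 4 added, and all genes called rose from 1935 to 3407. With DESeq2 and with the length correction 6 enzymes were positive and 1 negative.

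Set against CytoD alone, both compounds gave higher levels of 7 enzymes and lower levels of none, where 30.1% of all genes were called (15.8% higher, 14.3% lower). The 7 were Hk2, Gpi1, Aldoa, Pgk1, Tpi1, Pgam1 and Pfkl. Of those not yet given, Pfkl was higher by 0.50 (adjusted p = 0.0113, lost without CytoD 1 or CytoD 3, up to 0.0602) and Pgam1 by 0.38 (adjusted p = 0.00215). The Tpi1 difference of 0.43 (adjusted p = 0.00815) was lost without CytoD 3 (adjusted p = 0.0634). Set against CK666 alone, both compounds gave lower levels of 6 enzymes and a higher level of Hk2, where 11.6% of all genes were called (7.17% lower, 4.43% higher). The 6 were Pfkp (log2 -0.51, adjusted p = 0.000428), Eno2 (-0.61, adjusted p = 0.00690), Gpi1 (-0.38, adjusted p = 0.0142), Ldha (-0.37, adjusted p = 0.0213), Pgk1 (-0.30, adjusted p = 0.0216) and Gapdh (-0.52, adjusted p = 0.0363). The count of 7 fell to 3 without CytoD+CK666 2 and to 2 without CytoD+CK666 3, when Ldha (adjusted p up to 0.105) and Pgk1 (up to 0.104) were lost in either case and Gpi1 without CytoD+CK666 3 (0.0754). Hk2 (log2 0.52, adjusted p = 0.0434) held only without CytoD 1, CK666 2, CK666 3 or CytoD+CK666 1, and Gapdh only without CytoD 1, CytoD 2, CK666 2 or CytoD+CK666 1. With the length correction the split was 0 higher and 7 lower. When only the groups compared were fitted, Hk2, Gpi1, Gapdh, Pgk1, Eno2 and Ldha were lost (adjusted p from 0.0566 to 0.1729).

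The 21 other members showed no common direction. With CytoD 2 rose, 4 fell and 15 were not called, with a median log2 change of 0.14. With CK666 6 rose and 6 fell, and with both 7 rose and 4 fell. These shares, 6, 12 and 11 of 21, stand beside the 37.9%, 41.1% and 46.0% called among all genes. With RLE scaling and without the ribosomal RNA gene Rn45s the CK666 split was 5 higher and 9 lower. When only the 2 groups compared were fitted, the CytoD count was 5 higher and 6 lower. Of the 21, 5 had a called interaction, 4 positive and 1 negative, beside 14.3% of all genes.

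Among the transporters and switches of flux, the glucose carrier Slc2a1 was at 65.2, 65.0 and 69.2 CPM in Ctrl, 48.1, 50.3 and 50.1 with CytoD, 55.5, 59.1 and 59.4 with CK666, and 71.3, 59.6 and 58.3 with both. The CytoD libraries were the lowest of all, and the libraries with both compounds overlapped Ctrl. Slc2a1 fell by 0.42 on the log2 scale with CytoD (SE 0.08, adjusted p = 0.000956), and its difference was -0.20 with CK666 (adjusted p = 0.0611) and -0.08 with both (adjusted p = 0.458). The CK666 difference was called without CytoD 1, CK666 3 or CytoD+CK666 1 (adjusted p as low as 0.0188) and with RLE scaling (0.0311). The interaction was positive (0.54, SE 0.11, adjusted p = 0.00686). The lactate exporter Slc16a3 was low, at 0.326, 0.381 and 0.376 CPM in Ctrl, 0.329, 0.638 and 0.433 with CytoD, 0.512, 0.387 and 0.469 with CK666, and 0.666, 0.197 and 0.388 with both, and the glucose carrier Slc2a3 had 0 to 0.217 CPM. Neither was called in any comparison. Slc16a3 had 14 to 38 counts per library and an SE of 0.41 for CytoD against Ctrl. Slc2a3 had 0 to 12 counts and an SE of 1.05. All but large changes could thus have been missed.

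Pdk1, the kinase that inhibits pyruvate dehydrogenase, was at 63.8, 66.5 and 64.8 CPM in Ctrl, 59.1, 59.3 and 62.2 with CytoD, 82.4, 77.3 and 71.4 with CK666, and 62.3, 69.0 and 68.6 with both. Only the CK666 libraries lay wholly above Ctrl, and Pdk1 rose there by 0.24 (SE 0.07, adjusted p = 0.0134), a call lost without Ctrl 1 or Ctrl 3 (adjusted p up to 0.0815). The differences with CytoD (-0.11, adjusted p = 0.226) and with both (0.03, adjusted p = 0.715) missed the threshold, the latter turning sign without Ctrl 1 (-0.01).

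Pfkfb3 and Pfkfb4 make the allosteric activator of phosphofructokinase, and they moved apart most clearly with both compounds. Pfkfb3 was at 7.98, 7.53 and 7.55 CPM in Ctrl, 9.58, 9.83 and 8.34 with CytoD, 7.84, 16.9 and 11.4 with CK666, and 14.8, 22.8 and 24.0 with both. The libraries with both compounds were above all Ctrl and CytoD libraries, while CK666 1 lay within the Ctrl range. Pfkfb3 rose by 1.42 with both (SE 0.23, adjusted p = 0.000275) and stood above CytoD alone by 1.15 (adjusted p = 0.00231). Its difference with CytoD was 0.27 and missed the threshold (adjusted p = 0.4005), which it passed when only the groups compared were fitted (0.0344). Its rise with CK666 (0.65, SE 0.23, adjusted p = 0.0420) held among the 12 leave-outs only without CK666 1, CytoD+CK666 1 or CytoD+CK666 3 (adjusted p elsewhere up to 0.208, and log2 0.33 without CK666 2) and was lost with RLE scaling (0.0531). The difference between both and CK666 alone (0.77, adjusted p = 0.0451) held only without CK666 2 or CytoD+CK666 1 (elsewhere up to 0.176). Pfkfb4 fell with CytoD from 6.67 ± 0.568 to 3.83 ± 0.5 CPM (log2 -0.80, adjusted p = 0.000217), with CK666 to 5.02 ± 0.149 (log2 -0.41, adjusted p = 0.0139) and with both to 4.39 ± 0.204 (log2 -0.60, adjusted p = 0.00102). Its interaction was positive (0.60, adjusted p = 0.0311) and was lost without Ctrl 2, Ctrl 3, CytoD 1, CytoD 3, CK666 1, CytoD+CK666 1 or CytoD+CK666 2 (up to 0.0834).

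The 2 HIF alpha subunits behaved differently. Epas1, the alpha subunit of HIF2, lies at chr17:86753864-86833410 and was at 23.7, 21.1 and 18.4 CPM in Ctrl, 63.5, 75.5 and 73.5 with CytoD, 18.5, 24.6 and 17.5 with CK666, and 22.6, 30.8 and 31.9 with both. Every CytoD library was far above every other library. Epas1 rose 3.36-fold with CytoD (log2 1.75, SE 0.15, adjusted p = 4.14e-06), the largest change of any member in that comparison, and its difference with CK666 was -0.06 (adjusted p = 0.774). The rise was smaller when CK666 was present. Both compounds gave less Epas1 than CytoD alone (log2 -1.32, SE 0.15, adjusted p = 4.27e-05), and the interaction was -1.26 (SE 0.21, adjusted p = 0.00264). Set against CK666 alone, the difference with both was 0.49 and missed the threshold (adjusted p = 0.0536). It was called higher with DESeq2 (0.01675), with no filter (0.0318), with a replicate block (0.0457) and without Rn45s (0.0478). The same held without CK666 2 or CytoD+CK666 1 (adjusted p as low as 0.0117). Against Ctrl, Epas1 was called higher with both (log2 0.43, adjusted p = 0.0337), though the groups overlapped and the call was lost without Ctrl 2, Ctrl 3, CytoD 3, CytoD+CK666 2 or CytoD+CK666 3 (adjusted p up to 0.157).

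Hif1a, the alpha subunit of HIF1, was at 344, 332 and 323 CPM in Ctrl, 289, 324 and 324 with CytoD, 296, 301 and 200.2 with CK666, and 263, 283 and 308 with both. The libraries with CK666, alone or with CytoD, were below all Ctrl libraries, and CK666 3 was the lowest. The difference was -0.09 with CytoD (adjusted p = 0.609), -0.32 with CK666 (SE 0.13, adjusted p = 0.0569) and -0.22 with both (SE 0.13, adjusted p = 0.169), so that no call was made. The CK666 difference was called lower without CytoD 1, CytoD 3, CK666 1, CK666 2 or CK666 3 (adjusted p from 0.0246 to 0.0445), with RLE scaling (0.0356), with DESeq2 (0.0188) and with the length correction (0.0196). Without CK666 3 the difference was -0.20 with CK666 (adjusted p = 0.0319), and the difference with both was called too (adjusted p = 0.00302).

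The prolyl hydroxylases also differed. Egln3, whose own gene is a HIF target, was at 4.28, 5.07 and 6.12 CPM in Ctrl, 6.00, 5.60 and 5.56 with CytoD, 8.31, 10.8 and 10.2 with CK666, and 7.47, 9.79 and 9.32 with both. All libraries with CK666 were above all libraries without it. Egln3 rose by 0.92 with CK666 (SE 0.15, adjusted p = 0.000342) and by 0.78 with both (SE 0.15, adjusted p = 0.000872), and its difference with CytoD was 0.15 (adjusted p = 0.477). Egln1, the main oxygen sensor, was at 97.6, 98.3 and 103 CPM in Ctrl, 82.4, 76.0 and 215 with CytoD, 83.7, 155 and 91.1 with CK666, and 84.9, 100.4 and 88.0 with both. CytoD 3 and CK666 2 stood far above the other libraries of their groups, and Egln1 was not called in any comparison. Its difference turned from 0.32 to -0.34 with CytoD without CytoD 3 and from 0.14 to -0.19 with CK666 without CK666 2, with no call in either case.

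Among the remaining targets, both mitophagy receptors rose with CK666. Bnip3 was at 82.7, 86.4 and 93.6 CPM in Ctrl, 97.3, 96.6 and 104 with CytoD, 150.2, 166 and 174 with CK666, and 160.0, 190.2 and 196 with both. All libraries with CK666 were above all libraries without it. Bnip3 rose by 0.90 with CK666 (SE 0.09, adjusted p = 6.52e-06) and by 1.06 with both (SE 0.09, adjusted p = 9.17e-07), and its difference with CytoD was 0.18 (adjusted p = 0.129). Bnip3l rose from 275 ± 10.1 CPM in Ctrl to 332 ± 14.2 with CytoD (log2 0.27, adjusted p = 0.00572), 383 ± 11 with CK666 (log2 0.48, adjusted p = 9.58e-05) and 393 ± 24.1 with both (log2 0.52, adjusted p = 3.17e-05).

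Ddit4, an inhibitor of mTORC1 that is induced by stress, was highest with CK666 alone. It was at 48.8, 44.6 and 48.1 CPM in Ctrl, 49.5, 51.6 and 51.1 with CytoD, 82.9, 78.3 and 86.1 with CK666, and 54.3, 71.5 and 73.3 with both. It rose by 0.81 with CK666 (SE 0.10, adjusted p = 3.72e-05) and by 0.49 with both (SE 0.10, adjusted p = 0.00115), and its difference with CytoD was 0.11 (adjusted p = 0.429). Every library with CK666 was above every library without it, with those holding both compounds in between.

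The secreted factors fell with CK666. Adm, the precursor of the vasodilator adrenomedullin, lies at chr7:110627669-110629819 and was at 21.9, 25.3 and 23.3 CPM in Ctrl, 24.6, 26.8 and 27.0 with CytoD, 7.48, 8.47 and 8.32 with CK666, and 8.17, 8.74 and 9.14 with both. The 6 libraries with CK666 lay far below the 6 without it. Adm fell 2.9-fold with CK666 (log2 -1.54, SE 0.09, adjusted p = 5.98e-08) and 2.70-fold with both (log2 -1.44, SE 0.08, adjusted p = 4.63e-08). Its difference with CytoD was 0.15 (adjusted p = 0.156), and between both and CK666 alone 0.10 (adjusted p = 0.458). Vegfa, the vascular endothelial growth factor, was at 181, 198 and 189 CPM in Ctrl, 190.5, 224 and 211 with CytoD, 154, 176 and 144 with CK666, and 151, 161 and 174 with both. It fell by 0.26 with CK666 (SE 0.09, adjusted p = 0.0362), a call lost without Ctrl 2, Ctrl 3, CK666 1 or CytoD+CK666 2 (adjusted p up to 0.0834). With both the difference of -0.22 (adjusted p = 0.0620) missed the threshold and passed it with RLE scaling (0.0357) and without Ctrl 1, CytoD 1, CK666 2, CK666 3 or CytoD+CK666 3 (as low as 0.0114), and Vegfa was lower with both than with CytoD alone (-0.36, adjusted p = 0.00897).

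P4ha1 and P4ha2 encode the catalytic subunits of collagen prolyl hydroxylase, which lets collagen fold, and both fell in every treated group. P4ha2 was at 94.4, 98.3 and 102 CPM in Ctrl, 53.6, 57.9 and 58.3 with CytoD, 45.1, 51.1 and 54.6 with CK666, and 50.5, 50.1 and 47.3 with both. The treated groups lay close to each other and far below Ctrl. P4ha2 fell by 0.80 on the log2 scale with CytoD (SE 0.08, adjusted p = 7.58e-06), by 0.97 with CK666 (SE 0.08, adjusted p = 9.94e-07) and by 1.00 with both (SE 0.08, adjusted p = 3.87e-07). Both compounds together thus gave about the level of either alone, with an interaction of 0.77 (SE 0.11, adjusted p = 0.000886). P4ha1 was at 229.7, 238 and 239 CPM in Ctrl, 154, 159 and 150.0 with CytoD, 169, 160.3 and 169.8 with CK666, and 136, 126 and 124 with both. Here the libraries with both compounds were the lowest of all. P4ha1 fell by 0.61 with CytoD (SE 0.06, adjusted p = 1.18e-05), by 0.50 with CK666 (SE 0.06, adjusted p = 4.02e-05) and by 0.87 with both (SE 0.06, adjusted p = 2.06e-07), and it was lower with both than with CytoD (-0.26, adjusted p = 0.00648) or CK666 alone (-0.37, adjusted p = 0.00201). The difference from CK666 alone was lost when only the groups compared were fitted (adjusted p = 0.0656). The P4ha1 interaction of 0.24 missed the threshold (adjusted p = 0.0856).

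Ndrg1, a growth-related gene often used as a hypoxia marker, was low, at 2.77, 2.37 and 2.71 CPM in Ctrl, 3.04, 1.91 and 2.09 with CytoD, 1.93, 1.24 and 1.28 with CK666, and 3.77, 2.60 and 2.54 with both. It fell by 0.82 on the log2 scale with CK666 (SE 0.24, adjusted p = 0.0150), stood at 0.18 with both (adjusted p = 0.556, and -0.03 without CytoD+CK666 1) and was higher with both than with CK666 alone by 1.00 (adjusted p = 0.0162). The difference between both and CK666 alone was lost when only the groups compared were fitted (adjusted p = 0.0752). The Ndrg1 interaction of 1.16 (SE 0.33, adjusted p = 0.0340) was lost without Ctrl 1, Ctrl 2, Ctrl 3, CytoD 2, CytoD 3, CK666 2 or CytoD+CK666 1 (adjusted p up to 0.0889). Ero1l, an oxidase that helps proteins fold, rose with both from 78.0 ± 0.623 to 99.4 ± 2.58 CPM (log2 0.35, adjusted p = 0.00369), and its interaction missed the threshold (0.34, adjusted p = 0.0702). Ankrd37 stood at 0.782 to 1.19 CPM in the group means and Higd1a, a mitochondrial protein, at 28.5 to 35.5 CPM, and neither was called against Ctrl. Each was called higher with both than with CytoD alone, Ankrd37 by 0.60 (adjusted p = 0.0484) and Higd1a by 0.32 (adjusted p = 0.0497). Ankrd37 held only without CK666 1 or CytoD+CK666 1 and Higd1a only without CK666 1, CK666 2, CK666 3 or CytoD+CK666 1, and both were lost with RLE scaling (0.0597 and 0.0749).

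Among the 21, both compounds against CytoD alone gave 8 higher and 4 lower calls, beside 30.1% called among all genes, or 6 higher and 5 lower with RLE scaling and with DESeq2. Against CK666 alone there were 3 higher calls (Pfkfb3, Ndrg1 and Ero1l) and 1 lower (P4ha1), beside 11.6% among all genes. That split was 4 higher and 3 lower with DESeq2 and 2 and 2 with the length correction. When only the groups compared were fitted, Pfkfb3 (adjusted p = 0.1955), Ndrg1 (0.0752) and P4ha1 (0.0656) were lost. The 5 called interactions were those of Slc2a1, Pfkfb4, Epas1, Ndrg1 and P4ha2. Their count fell to 3 without Ctrl 2, Ctrl 3, CytoD 3 or CytoD+CK666 1 and rose to 8 without CK666 3.

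**Figure D3:**
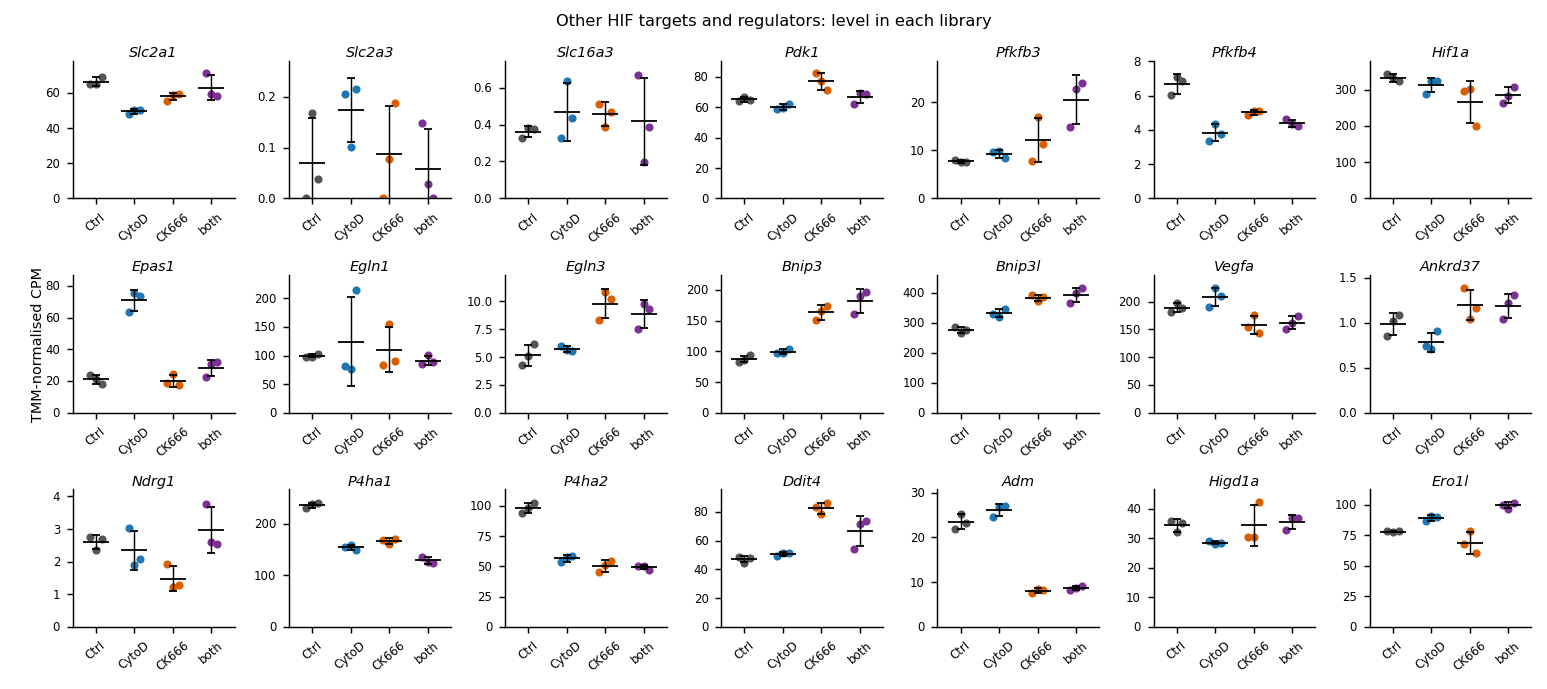
TMM-scaled CPM of the 21 other members in the 12 libraries (points), with the group mean and SD (bars, n = 3); both stands for CytoD+CK666. Epas1 is high only with CytoD alone (63.5 to 75.5 CPM), while Adm is low (7.48 to 9.14 CPM) and Bnip3 high (150.2 to 196 CPM) in the 6 libraries with CK666.

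**Figure D4:**
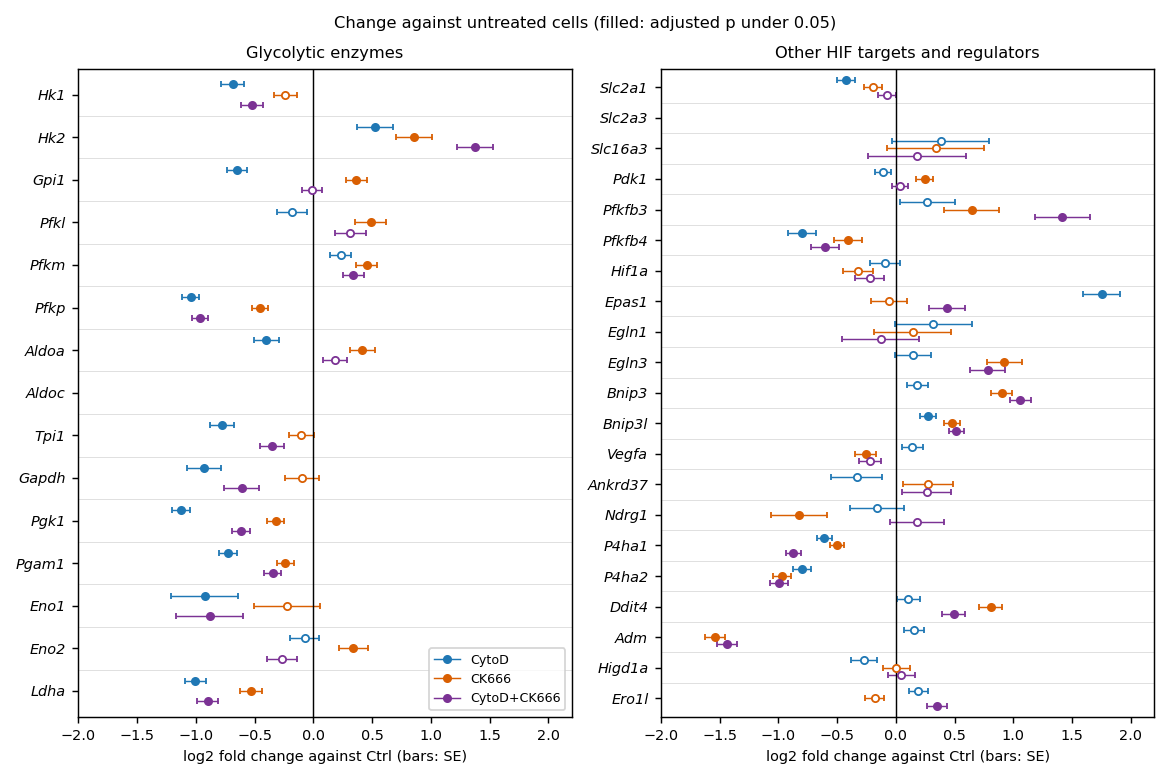
Fitted log2 fold change of each member against Ctrl with its SE, filled where the adjusted p was under 0.05; Aldoc and Slc2a3, near the floor, are not drawn. The enzymes lie mostly left of 0 with CytoD, Hk2 right of 0 in all 3 groups, and the other members on both sides.

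Several paralogs or partners changed their proportions. These pairs were chosen after their values were seen, shares are of summed CPM per kilobase, and the smallest 2-sided p an exact permutation test can give for 3 against 3 libraries is 0.1. Hk2 made up 14.6 ± 0.658% (SD, n = 3) of Hk1 and Hk2 in Ctrl, 28.5 ± 3.71% with CytoD, 26.8 ± 4.29% with CK666 and 39.1 ± 7.77% with both. Pfkp made up 10.9 ± 0.250% of the 3 phosphofructokinase genes in Ctrl, 5.85 ± 0.123% with CytoD, 6.12 ± 0.970% with CK666 and 4.79 ± 0.511% with both. Ldhb, the heart-type lactate dehydrogenase and not itself a member, went from 17.8 ± 0.863% of Ldha and Ldhb to 47.3 ± 2.88%, 41.9 ± 2.74% and 49.9 ± 6.72%. The share of Pfkfb3 in Pfkfb3 and Pfkfb4 went from 42.4 ± 2.93% to 60.6 ± 3.27%, 59.1 ± 8.52% and 74.1 ± 6.19%. Epas1 made up 5.32 ± 0.483% of Hif1a and Epas1 in Ctrl, 16.8 ± 0.421% with CytoD, 6.42 ± 1.01% with CK666 and 8.11 ± 0.907% with both. In all but the last pair with CK666 (exact permutation p = 0.3), no treated library overlapped Ctrl. The choice of pairs with their values known favours such a lack of overlap. Its share over other pairs of genes was not computed, so that it describes these pairs only.

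**Figure D5:**
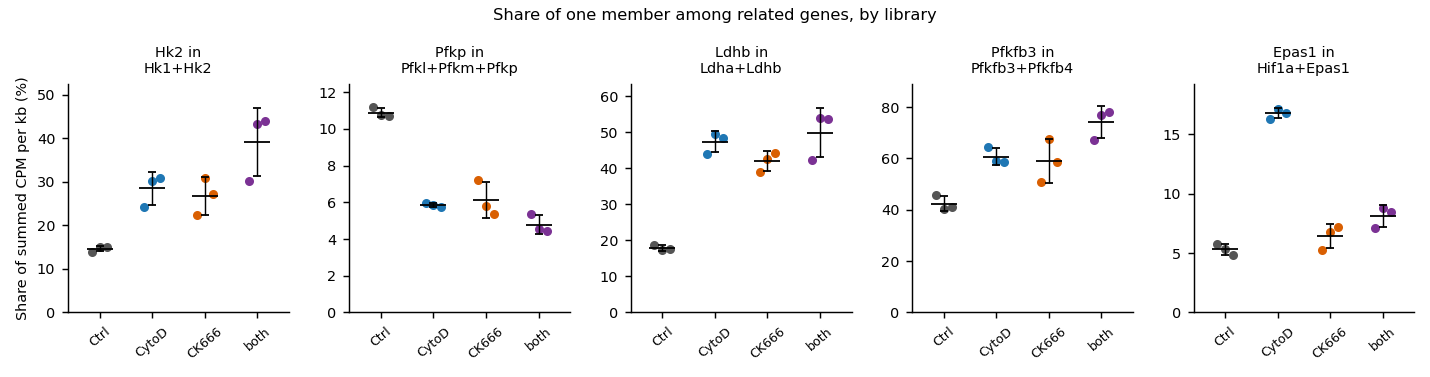
Share of one gene in the summed CPM per kilobase of related genes, in percent, for the 12 libraries (points) with group mean and SD (bars, n = 3); both stands for CytoD+CK666. The Hk2, Ldhb and Pfkfb3 shares are higher and the Pfkp share lower in every treated library than in Ctrl, and the Epas1 share is highest with CytoD.

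Other glycolytic genes, 24 isozymes, carriers and side enzymes, gave 16 that passed the filter. Of these 3 rose and 6 fell with CytoD, 6 rose and 5 fell with CK666, and 6 rose and 5 fell with both, where 37.9%, 41.1% and 46.0% of all genes tested were called. Pkm, the pyruvate kinase, fell with CytoD from 1529.9 ± 100.2 to 805 ± 69.2 CPM (log2 -0.93, adjusted p = 1.96e-05), and its interaction was positive (0.62, adjusted p = 0.0129). Ldhb, which favours making pyruvate from lactate, rose from 118 ± 3.94 CPM to 243 ± 15 with CytoD (log2 1.05, adjusted p = 0.000117), 274 ± 58.7 with CK666 (log2 1.22, adjusted p = 2.81e-05) and 292 ± 49.7 with both (log2 1.31, adjusted p = 9.24e-06), with a negative interaction (-0.96, adjusted p = 0.00836). Slc2a4, the insulin-responsive glucose carrier, rose from 1.75 ± 0.498 CPM to 3.62 ± 0.104, 6.08 ± 1.20 and 9.41 ± 2.43 (log2 1.05, 1.79 and 2.43, adjusted p = 0.00399, 6.37e-05 and 2.75e-06). Eno3, the muscle enolase, fell from 8.53 ± 1.30 CPM to 4.16 ± 0.689 with CK666 (log2 -1.03, adjusted p = 0.000145) and 3.62 ± 0.296 with both (log2 -1.24, adjusted p = 2.07e-05). Slc2a10, a further sugar carrier, had a positive interaction (0.48, adjusted p = 0.0178, and 0.0511 without CytoD 2).

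The 14 genes that handle pyruvate beyond glycolysis all passed the filter. With CytoD 4 rose and 2 fell, with CK666 8 rose and 2 fell, and with both 9 rose and 2 fell, with medians of 0.19, 0.58 and 0.68 on the log2 scale against 0.02, 0.03 and 0.04 over all genes, of which 37.9%, 41.1% and 46.0% were called. Pcx, pyruvate carboxylase, rose from 71.3 ± 2.58 CPM in Ctrl to 222 ± 13.8 with CytoD (log2 1.64, adjusted p = 1.15e-05), 499 ± 114 with CK666 (log2 2.81, adjusted p = 1.45e-07) and 646 ± 131 with both (log2 3.18, adjusted p = 2.91e-08), with an interaction of -1.26 (adjusted p = 0.00366). Mpc2, a subunit of the mitochondrial pyruvate carrier, rose from 55.3 ± 3.15 to 171 ± 52.9 CPM with CK666 (log2 1.63, adjusted p = 1.34e-05) and 173 ± 28.2 with both (log2 1.64, adjusted p = 7.15e-06). Its rise with CytoD, to 82.5 ± 1.14 CPM (log2 0.58, adjusted p = 0.0191), was lost without Ctrl 1, Ctrl 2, Ctrl 3 or CytoD 3 (adjusted p up to 0.0796). Pdk3, a kinase like Pdk1, fell with both from 46.5 ± 0.780 to 17.7 ± 2.93 CPM (log2 -1.39, adjusted p = 1.47e-06). Pdk4 had a negative interaction (-0.49, adjusted p = 0.0388) that held among the 12 leave-outs only without Ctrl 1, CK666 3 or CytoD+CK666 1 (elsewhere up to 0.0920). Pcx is abundant in adipocytes, whose markers rose in the same groups (above), and their part in these values was not tested.

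Of 29 further HIF targets and regulators, 26 passed the filter, with calls in both directions. With CytoD 4 rose and 7 fell, with CK666 6 rose and 7 fell, and with both 9 rose and 7 fell, beside 37.9%, 41.1% and 46.0% of all genes called in either direction. The CytoD count is near that background. Stc1, a secreted hormone, rose with CytoD from 7.23 ± 1.40 to 32.7 ± 4.01 CPM (log2 2.18, adjusted p = 2.55e-05) and fell with CK666 to 2.91 ± 0.609 (log2 -1.31, adjusted p = 0.00159). With both it was at 6.55 ± 2.43 CPM, below CytoD alone (log2 -2.31, adjusted p = 2.28e-05). Ak4, a mitochondrial adenylate kinase, fell with CytoD from 16.4 ± 0.786 to 5.58 ± 1.04 CPM (log2 -1.56, adjusted p = 5.22e-06), and its interaction was positive (1.25, adjusted p = 0.00160). Bhlhe40, a transcriptional repressor, fell with CytoD from 74.6 ± 8.15 to 30.9 ± 1.88 CPM (log2 -1.27, adjusted p = 2.73e-06), with an interaction of 0.79 (adjusted p = 0.00440). Angptl4, a lipase inhibitor that PPAR factors also induce, rose with CK666 from 109 ± 10.4 to 321 ± 40.7 CPM (log2 1.55, adjusted p = 6.50e-07) and to 287 ± 28.6 with both (log2 1.40, adjusted p = 7.71e-07). Gbe1, the glycogen branching enzyme, had an interaction of 0.53 (adjusted p = 0.0167, and 0.0512 without CytoD 2).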

How the data were processed

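RNA was measured in 12 libraries by sequencing. The authors deposited 1 table with a read count per gene and library, and, per the submitters' processing notes, they used CASAVA 1.9, TopHat and HTSeq with the build hg19. That build is human, but the symbols are mouse, and all 36 members matched a GENCODE M21 gene of that name at the same place in GRCm38. Every deposited count was even, which both reads of a fragment being counted would give, so halved counts were tried. The authors' deposited RPKM values were used only for their library total, which exceeded the sum of gene counts 1.122 to 1.162 times. Library sums were 48930210 to 69269716, and Rn45s took 1.856% to 4.521%.

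Genes were kept by filterByExpr (minimum count 10), scaled by TMM and fitted in edgeR 4.0.16 (limma 3.58.1, R 4.3.3) with 1 mean per group over 12 libraries. Tests were 2-sided quasi-likelihood tests, adjusted by Benjamini and Hochberg over 13534 genes within each of 6 comparisons, and not across comparisons. The common biological coefficient of variation was 0.115. The SE is the log2 change over the square root of F, and fold changes include edgeR's prior count. Simulated counts were used to check the fit. The main fit did not pair libraries by replicate number, and whether the numbers mark a pairing is not known.

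The members and lists were chosen with earlier results of these data known. Values in every library are given for the 5 members with the largest called change in CytoD, CK666 or both against Ctrl and in the interaction, and for Slc2a1, Hk2, Pfkp, Gapdh, Pgk1, Ldha, Slc16a3, Pdk1, Hif1a, Epas1, Egln1, Egln3, Vegfa, Bnip3, Ndrg1, Ddit4 and P4ha1. From each background list at most 3 called genes per comparison are named. Alternatives were RLE factors, no filter, DESeq2 1.42.0, a replicate block, halved counts, a length correction, no Rn45s, only the groups compared, and leaving out each library. Promoter windows are those of RefSeq, found for 32 of 36 members.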

Additional observations from a re-analysis of the deposited data

Results flagged for a closer look

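Each result here is a change with CytoD that differed with and without CK666, by the interaction test in the edgeR fit across all genes (log2, adjusted p in the report). Of all genes tested, 14.3% were called in that test. The call was lost in 9 of the 12 leave-outs for Tpi1 and for Pdk4. It was lost in 7 for Ndrg1 and for Pfkfb4, and in 1 for Slc2a10 and for Gbe1. Among the enzymes the interaction was 0.83 for Pgk1, 0.64 for Ldha, 0.62 for Pgam1, 0.53 for Pfkp and 0.53 for Tpi1. Among the other members it was 1.16 for Ndrg1, 0.77 for P4ha2, 0.60 for Pfkfb4, 0.54 for Slc2a1 and -1.26 for Epas1. Among the genes of the other lists it was 1.25 for Ak4, 0.79 for Bhlhe40, 0.62 for Pkm, 0.53 for Gbe1, 0.48 for Slc2a10, -0.49 for Pdk4, -0.96 for Ldhb and -1.26 for Pcx. For Epas1, Pcx and Ldhb the negative value goes with a rise with CytoD that was smaller or missing when CK666 was present. For the enzymes it is a fall that was smaller.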

How the results depend on the processing

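Counts of called members kept within 1.5 times in most settings. With only the groups compared, the count of other members with CytoD was 11 (main 6), and for both against CK666 it was 1 enzyme (main 7), 1 other member (main 4) and 456 of all genes (main 1570). DESeq2 gave 7 other members for both against CK666 and 8 for the interaction (main 5), and the length correction gave 8. Leaving out 1 library gave 2 to 8 enzymes and 749 to 2588 of all genes for both against CK666, and 4 to 9 enzymes, 3 to 8 other members and 1103 to 3407 of all genes for the interaction, with the highest of these without CK666 replicate 3. The sign turned for Epas1 with CK666 under the length correction (0.026). Leaving out 1 library gave -0.34 to 0.58 for Egln1 with CytoD (negative without CytoD 3), -0.19 to 0.304 with CK666 (negative without CK666 2), -0.26 to 0.024 for Gapdh with CK666 (positive without CK666 2), -0.012 to 0.081 for Pdk1 with both (negative without Ctrl 1) and -0.026 to 0.278 for Ndrg1 with both (negative without CytoD+CK666 1), none of them called. The cause was not tested. Whether replicate numbers pair the libraries is not known, and the main fit did not pair them. Correlations of same-numbered deviations were -0.079 to 0.256, and not every library correlated best with its own number. Such correlations cannot exclude a pairing. With a replicate block the enzymes called were 12 with CytoD (main 11), 11 with CK666 (main 10), 11 with both (main 10), 7 for both against CytoD (main 7), 8 for both against CK666 and 6 for the interaction, and the other members called were 7, 12, 12, 11, 5 and 5. Among the gene results named, halved counts changed no call. Depth limits Aldoc and Slc2a3, which are at or near the floor, and Slc16a3, which is low.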
